A study of Mus musculus with 6 samples.

Results

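The interferon ligands Ifnb1, Ifna4, Ifna2 and Ifng, the receptor chains Ifnar1, Ifnar2, Ifngr1 and Ifngr2 and the receptor-bound kinases Jak1 and Tyk2 were followed in the livers of L1-Tg and WT mice. These 10 genes were chosen by function, among 37074 genes on the array, and each was found through the RefSeq accession of its probes, which gave 13 probes. L1-Tg mice are hemizygous for human NPC1L1 under the APOE promoter, which drives expression in the liver, and had been backcrossed to C57BL/6J for at least 8 generations, and the WT mice were their littermates. All mice were males of 6 to 12 weeks on a control-fat diet (CFD) and were not fasted, and the study asked how their livers differed at baseline. Each group had 3 arrays with RNA pooled from 2 or 3 mice on each, so that errors given here describe the spread between pools.

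Of the 4 ligands, Ifna2 was well above background in all pools, Ifng in 3 pools of L1-Tg and 1 of WT mice, and Ifnb1 and Ifna4 in no pool. All receptor chains and both kinases were well above background in every pool. In limma 0 of the 8 genes tested passed the adjusted threshold of 0.05, where 0.13% of all 22339 genes tested passed, and 1 of 8 had an unadjusted p under 0.05, where 8.85% of all genes did. The per-gene test without moderated variances likewise called 0 after adjustment and gave 1 member an unadjusted p under 0.05. That gene was Jak1 in either test, and it was lower in L1-Tg mice.

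Interferons are secreted proteins that cells release on sensing viral or bacterial products. Type I interferons, the interferon-beta and interferon-alpha proteins, bind a receptor made of the chains Ifnar1 and Ifnar2, whereas interferon-gamma, the type II interferon, is made mainly by T cells and natural killer (NK) cells and binds Ifngr1 and Ifngr2. Jak1 and Tyk2 are tyrosine kinases that sit on the inner ends of the type I receptor chains and phosphorylate STAT proteins, which then switch on interferon-stimulated genes, and Jak1 also serves the receptor for interferon-gamma.

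Signals are processed Cy3 intensities on the linear scale, and differences between groups were taken on log2 signals from which the 75th percentile of the array had been subtracted. The percentile ranged from 297 to 378 in intensity, and the lowest signal that the software marked as well above background lay between 12.6 and 20.0 on the 6 arrays. All arrays lay on 1 slide with WT in row 1 and L1-Tg in row 2, so row and genotype cannot be told apart. The hepatocyte markers Alb, for albumin, and Serpina1a, for alpha-1 antitrypsin, had intensities from 442843 to 565151 in all pools. Human NPC1L1 was not measured here, and whether the mouse Npc1l1 probe binds its RNA was not tested. That probe had signals of 24.4, 15.7 and 16.6 in L1-Tg livers and 22.1, 25.1 and 30.3 in WT livers and was well above background in 1 and 2 pools, respectively.

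Ifnb1 encodes interferon-beta, the type I interferon that many cell types can make. Its signals were 4.26, 3.60 and 3.87 in the L1-Tg livers (replicates 1, 2 and 3, the order used for all such values) and 5.43, 3.95 and 4.56 in the WT livers. Every value lay under the lowest signal well above background on its array. Ifna4 encodes an interferon-alpha that is made early in a response, and its signals were 3.82, 3.21 and 3.36 in L1-Tg livers and 4.77, 3.52 and 3.89 in WT livers, again under that limit on every array. Neither gene was marked as positive and significant, a laxer mark of the software, on any array, and therefore neither has a fold change.

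Ifna2 encodes another interferon-alpha. Its brighter probe had signals of 49.7, 37.4 and 45.2 in L1-Tg livers and 37.4, 39.2 and 43.9 in WT livers. These were low but well above background on all 6 arrays, and the scaled values of the groups overlapped. The scaled log2 level was -2.94 ± 0.05 (SD, n = 3 pools) in L1-Tg livers and -3.01 ± 0.06 in WT livers, a difference of 0.07 (95% interval -0.14 to 0.28, limma adjusted p = 0.792). A second probe of Ifna2 had signals of 38.3, 27.9 and 37.4 in L1-Tg livers and 29.4, 29.6 and 27.3 in WT livers. Its difference was 0.20 in a fit over 29444 probes (95% interval -0.08 to 0.47, limma adjusted p = 0.641). The interferon-alpha genes are near-identical copies without introns, so a probe for one may also bind RNA of another, and the share of such binding in these signals was not tested.

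Of the other type I ligands, 11 of 15 listed were on the array. Ifna1, Ifna5, Ifna7, Ifna12, Ifna13, Ifna14, Ifnab and Ifnk were well above background in all 6 pools, with mean intensities from 21.7 to 115, and Ifna11 was so in 5 pools. Ifna16 and Ifne, like Ifnb1 and Ifna4, were well above background in no pool. In L1-Tg mice 4 of the 9 genes tested were higher and 5 lower, with differences from -0.57 to 0.29 and a median of -0.01. The lowest difference was that of Ifna11, which passed the filter through its WT pools alone. In limma 0 of the 9 genes passed after adjustment and 2 had an unadjusted p below 0.05, 1 higher and 1 lower, against 8.85% of all genes tested. There was no overlap for 2 higher and 2 lower genes, against 7.27% and 8.63% of all genes tested. Among type III interferons and their receptor, Ifnl3 and the receptor chain gene Il10rb were well above background in all 6 pools and the receptor chain gene Ifnlr1 in 1 pool.

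Ifng encodes interferon-gamma, and its probe was spotted in duplicate, with the 2 spots averaged. The averaged signals were 23.2, 15.4 and 19.2 in L1-Tg livers and 12.5, 30.5 and 8.74 in WT livers. All L1-Tg pools thus lay between the highest and the lowest WT pool. Of the WT pools, WT replicate 2 alone was well above background, and in L1-Tg replicate 2 the mark held for 1 of the 2 spots. The scaled log2 level was -4.14 ± 0.12 (SD, n = 3 pools) in L1-Tg livers and -4.43 ± 0.98 in WT livers. The difference of 0.29 had a 95% interval from -0.82 to 1.40 (limma adjusted p = 0.844), the widest of the 8 genes, and it was -0.13 without WT replicate 3 and 0.82 without WT replicate 2. Ifng passed the filter through its L1-Tg pools alone. WT replicates 1 and 3 lay under the lowest signal well above background on their arrays, so the difference is no measured fold. A list of 20 T and NK cell markers, of which 14 were tested and none of the 18 on the array was dim in all pools, was also highest in WT replicate 2. Its summed level, in units of the 75th percentile of the array, was 180, 259 and 114 in WT replicates 1 to 3 and 104 to 122 in L1-Tg mice. Cd4, a coreceptor of T helper cells, carried most of it, and without Cd4, a sum taken after the values were seen, it was 33.4, 41.9 and 29.9 in WT livers and 28.7 to 31.0 in L1-Tg livers, again highest in WT replicate 2. The Cd4 probe had a mean intensity of 38199, against 81.6 for Cd3d and 14.8 for Cd8a, and whether its signal is T cell RNA was not tested. Of the other markers Zap70 was brightest, at 3167, and differed by -0.80, whereas Cd3d differed by 0.37. Cd8a was well above background in 3 L1-Tg and 0 WT pools. It thus passed the filter through its L1-Tg pools alone, and no difference is given for it. The sums thus follow a few bright probes. The median log2 difference of the list was 0.09, with 9 genes higher, Cd8a among them, and 5 lower. It was 0.05 over the 11 genes well above background in all pools, -0.17 without WT replicate 1 and 0.52 without WT replicate 2. The part of these cells in the Ifng signal was not tested. In bulk liver RNA, fewer cells of a type and less RNA per cell cannot be told apart.

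**Figure D1:**
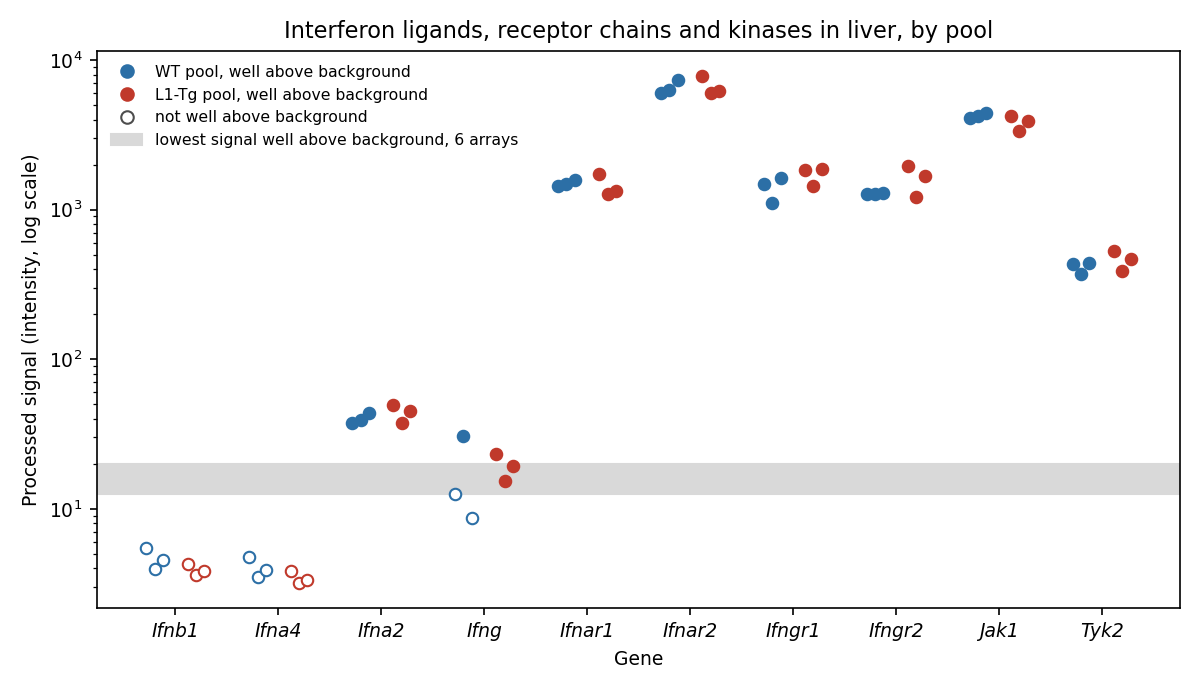
Processed signal (intensity, log scale) of the probe used for each of the 10 genes in the 3 WT and 3 L1-Tg pools, where filled points were well above background, open points were not, and the grey band spans the lowest signal well above background on the 6 arrays (12.6 to 20.0). Ifnb1 and Ifna4 lie under the band in all pools, Ifng lies about it, and the receptor chains and kinases lie above it in every pool, although signals of different probes cannot be compared with each other as RNA levels.

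The promoters of the ligands and of the receptors are shown because they differ in sequence, and because stretches of the Ifna2 and Ifna4 promoters are nearly alike. The sequences are those of RefSeq on GRCm38.p6, which holds 32851 promoters of 27025 genes, and all 10 genes matched. In the 250 bases before the start, the letters AANNGAAA, the core that interferon regulatory factors are known to bind, were found on either strand in 4 of 4 ligands and in 0 of 6 receptor and kinase genes, where 21.3% of all promoters hold them. A match describes the letters and is not a bound site. Stretches of 100 bases are printed 5′ to 3′ in the direction of the gene, in lower case with AANNGAAA in capitals where it was found on the printed strand. The Ifnb1 stretch is chr4:88522871-88522970 (minus strand) and ends 76 bases before the start, that of Ifna4 is chr4:88841671-88841770 (plus strand) and ends 45 bases before it, and that of Ifna2 is chr4:88683871-88683970 (minus strand) and ends 91 bases before it.
Ifnb1: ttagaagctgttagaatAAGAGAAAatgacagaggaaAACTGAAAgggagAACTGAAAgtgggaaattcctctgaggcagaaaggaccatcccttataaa
Ifna4: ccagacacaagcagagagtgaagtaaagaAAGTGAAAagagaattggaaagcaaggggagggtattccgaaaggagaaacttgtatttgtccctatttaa
Ifna2: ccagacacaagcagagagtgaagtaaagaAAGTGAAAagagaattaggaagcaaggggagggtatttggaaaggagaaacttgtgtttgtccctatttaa
The Ifnb1 stretch held 3 matches to AANNGAAA. The stretches of Ifna4 and Ifna2 held 1 match each at the same place and were identical at 95 of 100 bases. In the whole 250 bases, on either strand, Ifna4 held 3 matches and Ifna2 held 2. The Ifna2 probe was well above background in all pools and the Ifna4 probe in none. Signals of different probes cannot be compared as RNA levels, and the Ifna2 probe may bind RNA of other interferon-alpha genes. A link between these promoters and the signals was not tested.

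In the receptor and kinase promoters the dinucleotide CG was frequent. For Ifnar1, Jak1 and Tyk2 the start in the promoter table is that of a transcript and lies inside the RefSeq gene record, whereas for the other members it is the first base of the record. The 250 bases before the start held 19 CG in Ifnar1, 11 in Ifnar2, 11 in Ifngr1, 25 in Ifngr2, 19 in Jak1 and 19 in Tyk2. Those of the ligands held 1 in Ifnb1, 2 in Ifna4, 1 in Ifna2 and 6 in Ifng, and the median of all promoters was 6. The last 100 bases before the start of 1 chain of each receptor are printed in the same way with CG in capitals, as chr16:91372683-91372782 for Ifnar2 and chr16:91546959-91547058 for Ifngr2, both on the plus strand.
Ifnar2: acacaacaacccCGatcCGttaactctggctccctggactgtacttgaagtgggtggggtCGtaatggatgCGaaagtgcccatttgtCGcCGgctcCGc
Ifngr2: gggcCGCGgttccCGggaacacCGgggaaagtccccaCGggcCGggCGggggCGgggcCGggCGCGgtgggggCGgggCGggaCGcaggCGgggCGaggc
Of the receptor and kinase genes, all 6 had more CG than each of the 4 ligands, and 64.4% to 89.3% of all promoters held fewer CG than theirs.

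**Figure D2:**
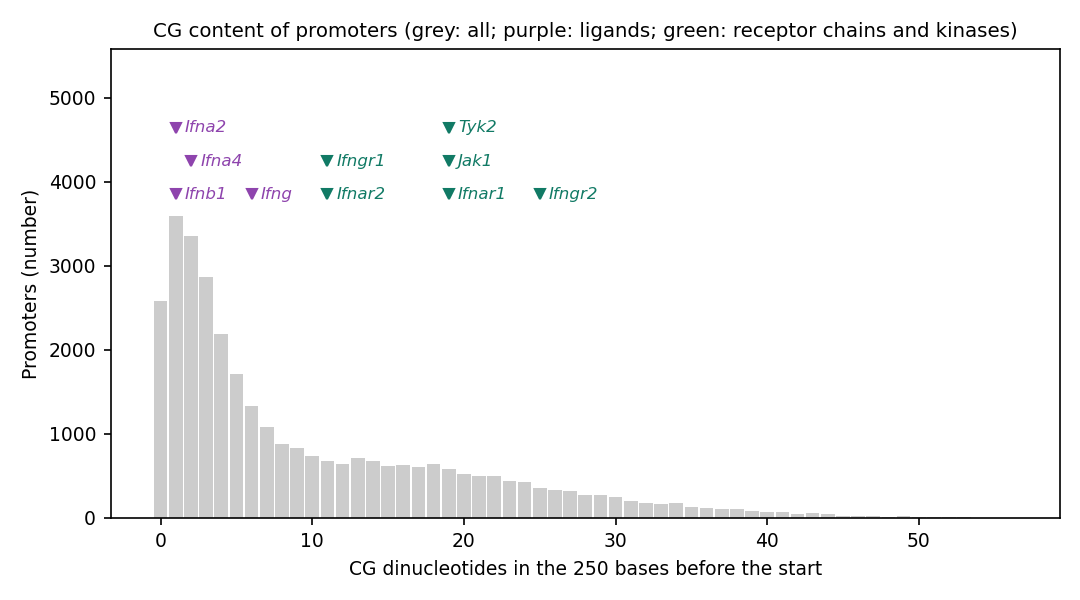
Number of CG dinucleotides in the 250 bases before the start (horizontal axis) and number of RefSeq promoters with that count (vertical axis, grey bars), with triangles at the counts of the 4 ligands (purple) and of the 6 receptor chain and kinase genes (green). The ligands have 1 to 6 and the others 11 to 25, while the height of a triangle has no meaning.

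The receptor chains and kinases differed little between the genotypes. The intervals of the 6 genes allowed folds between 0.754 and 1.503 of L1-Tg over WT. In L1-Tg mice 5 of the 8 genes tested were higher and 3 lower, with a median of 0.08 against -0.03 over all genes tested, and adjusted p in limma ranged from 0.549 to 0.913. Of the 5 higher genes, Ifng passed the filter through its L1-Tg pools alone.

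Ifnar1, the chain that binds Tyk2, had scaled log2 signals of 2.19, 2.09 and 1.98 in L1-Tg livers and 2.20, 2.24 and 2.21 in WT livers. Each L1-Tg pool lay below each WT pool, the nearest by little. The means were 2.09 ± 0.10 (SD, n = 3 pools) and 2.22 ± 0.02, a difference of -0.13 (95% interval -0.36 to 0.09, limma adjusted p = 0.669). The other 2 probes of Ifnar1, which were also well above background in every pool, differed by 0.01 (95% interval -0.30 to 0.31) and -0.00 (-0.21 to 0.21), and in both the groups overlapped. The lower value in L1-Tg mice was thus found with 1 of 3 probes, and for that probe the difference was -0.08 without L1-Tg replicate 3 and -0.02 with the array median as the scaling.

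Ifnar2, the chain that binds Jak1, had scaled log2 signals of 4.37, 4.34 and 4.20 in L1-Tg livers and 4.26, 4.33 and 4.44 in WT livers. The groups overlapped throughout. The difference was -0.04 (95% interval -0.27 to 0.20, limma adjusted p = 0.913), and its sign turned under other scalings, with 0.00 after quantile normalization and 0.07 with the array median.

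Ifngr1, the chain that binds interferon-gamma first, had scaled log2 signals of 2.29, 2.27 and 2.47 in L1-Tg livers and 2.23, 1.83 and 2.25 in WT livers. The L1-Tg pools all lay above the WT pools, of which WT replicate 2 stood lowest. The difference was 0.24 (95% interval -0.11 to 0.59, limma adjusted p = 0.641), and it was 0.10 without WT replicate 2. Ifngr2, the chain needed for signaling, had scaled log2 signals of 2.37, 2.03 and 2.33 in L1-Tg livers and 2.01, 2.02 and 1.92 in WT livers. Again no WT pool reached an L1-Tg pool, but L1-Tg replicate 2 lay next to the WT pools. Its means were 2.24 ± 0.18 (SD, n = 3 pools) and 1.98 ± 0.05, which differed by 0.26 (95% interval -0.03 to 0.55, limma adjusted p = 0.578). The median of macrophage markers stood higher as well, but not against every WT pool. Of the Kupffer cell markers on the array, 13 were tested and all 13 stood higher in L1-Tg livers, with a median of 0.32, which was 0.13 without WT replicate 1 and 0.63 without WT replicate 3. In limma 0 had an unadjusted p below 0.05, against 8.85% of all genes tested, and 0 had groups without overlap, against 15.9%. With the WT mean of each gene set to 0, their median was 0.52 in WT replicate 3 and at most 0.48 in L1-Tg pools. Their summed level was 180 to 213 in L1-Tg livers and 115, 151 and 211 in WT replicates 1 to 3, none was dim in all pools, and their part in the Ifngr1 and Ifngr2 values was not tested.

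Jak1 had scaled log2 signals of 3.48, 3.49 and 3.55 in L1-Tg livers and 3.70, 3.74 and 3.70 in WT livers. The groups were apart by more than the range of either. The means were 3.51 ± 0.04 (SD, n = 3 pools) and 3.72 ± 0.02, and the difference was -0.21 (95% interval -0.41 to -0.01), a fold of 0.865. In limma the unadjusted p was 0.0412 and the adjusted p = 0.549, so the gene did not pass, and the adjusted p lay between 0.323 and 0.976 in the alternatives. The difference was negative in all alternatives run, from -0.23 to -0.10. Tyk2 had scaled log2 signals of 0.48, 0.40 and 0.48 in L1-Tg livers and 0.46, 0.24 and 0.36 in WT livers, and the groups overlapped. The difference of 0.10 had a 95% interval from -0.14 to 0.33 (limma adjusted p = 0.748), and it was 0.04 without WT replicate 2, 0.15 without WT replicate 1 and 0.21 with the array median.

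**Figure D3:**
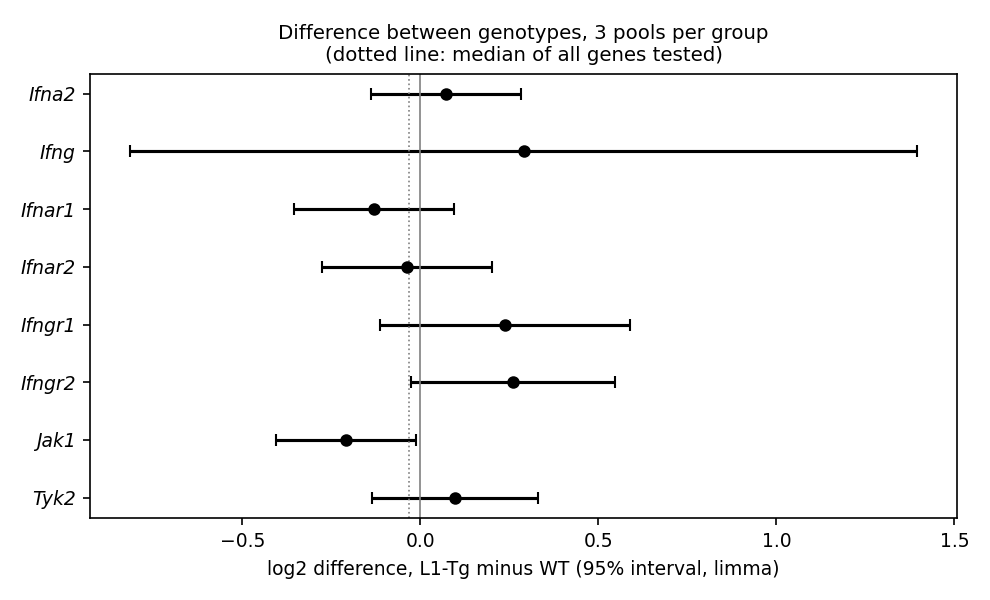
Difference in log2 signal, L1-Tg minus WT, with its 95% interval from limma (3 pools per group), for the 8 genes tested, where the solid line marks 0 and the dotted line the median of all genes tested (-0.03). The interval of Ifng, which passed the filter through its L1-Tg pools alone, is the widest. That of Jak1 lies just below 0, from -0.41 to -0.01, before adjustment over all genes.

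Groups did not overlap for 4 of the 8 genes tested, namely Ifnar1 and Jak1, lower in L1-Tg mice, and Ifngr1 and Ifngr2, higher, against 15.9% of all genes tested (8.63% lower and 7.27% higher). The difference index of the methods, the difference of the group means divided by the sum of the standard deviations, was computed on linear signals divided by the 75th percentile and passed 0.7 in modulus for 5 of 10 genes, against 30.2% of all genes. These were Jak1 (-3.57), Ifngr2 (1.09), Ifnar1 (-1.05), Ifnb1 (-0.947) and Ifna4 (-0.862), so that both genes well above background in no pool passed it as well. Without scaling 1 gene passed, and without L1-Tg replicate 2 it was 8.

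Ratios within an array do not depend on the scaling between arrays and show whether the differences of paired genes were unequal. The log2 ratio of Ifnar2 to Ifnar1 differed by 0.09 between the groups (exact permutation test, two-sided, p = 0.3, adjusted over 3 ratios 0.45), and by -0.04 with either of the other Ifnar1 probes. For Ifngr2 over Ifngr1 the difference was 0.02 (exact permutation test, p = 1), although both chains stood higher in L1-Tg mice. The log2 ratio of Tyk2 to Jak1 was -2.996, -3.099 and -3.073 in L1-Tg livers and -3.241, -3.502 and -3.342 in WT livers. Here the groups were apart, by a mean difference of 0.31, with p = 0.1 in the exact permutation test, the smallest that 3 against 3 pools can give, and 0.3 after adjustment. It lay between 0.22 and 0.37 in the alternatives.

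**Figure D4:**
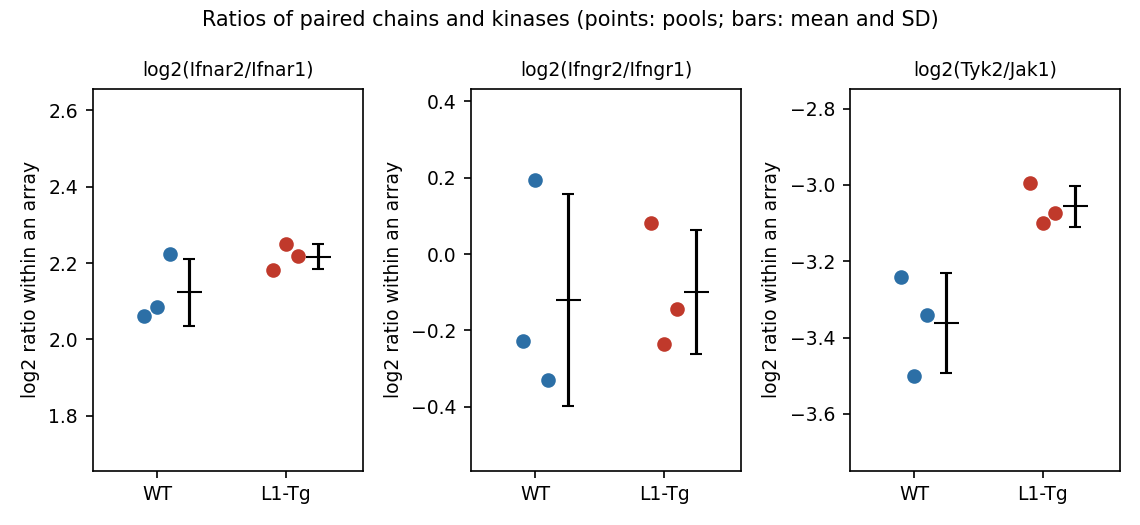
Log2 ratio of the signals of paired genes within each array, for Ifnar2 over Ifnar1, Ifngr2 over Ifngr1 and Tyk2 over Jak1 (points are pools, bars are the mean and SD of 3 pools, and each vertical axis spans the same width). Groups overlap in the first 2 ratios and not in Tyk2 over Jak1, and since the probes differ, the sign of a ratio says nothing of which RNA was more abundant.

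As a description of likeness, the genes whose scaled signals ran most like each receptor chain or kinase over the 6 arrays were taken from 13289 genes with a symbol that were well above background in all pools. Pearson's r was 0.99 for Adprhl1 and 0.98 for Clec2h with Ifnar1, 0.99 for Inafm1 and Nkain2 with Ifnar2, and 1.00 for Trim8 and 0.99 for Bin1 with Ifngr1. It was 1.00 for Spats2l and 0.99 for Wdr86 with Ifngr2, 0.99 for Pomt2 and 6820431F20Rik with Jak1, and 1.00 for Plekha3 and 0.99 for Hnmt with Tyk2. With 6 points high values are frequent, and the r at the 99th percentile of these genes was between 0.89 and 0.93. The arrays that shared genotype are part of every r.

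Other genes of the pathway were described from lists that were written with earlier results of these data known. In limma 0 genes of these lists passed the adjusted threshold. Some genes are in more than 1 list, so the counts are not separate. Irf7 is among the inducing factors and the interferon-stimulated genes, and Usp18 among the brakes and the interferon-stimulated genes. Factors that sense viral RNA or DNA and induce the ligands included 15 of 20 tested genes that were higher and 5 that were lower, with a median of 0.20, and 8 higher and 1 lower gene had groups without overlap, where 7.27% and 8.63% of all genes tested did. Over the 19 factors well above background on all 6 arrays the median was 0.19. Traf3, an adaptor upstream of the kinases that turn on Ifnb1, differed by 0.57 (limma adjusted p = 0.30), Ddx58, the RNA sensor RIG-I, by 0.58 (limma adjusted p = 0.340) and Dhx58, the related LGP2, by 1.06 (limma adjusted p = 0.351). In each of them all L1-Tg pools lay above all WT pools, whereas the ligand Ifnb1 itself was dim in all pools.

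Directly under the receptors, 6 of 10 transducer genes were higher and 4 lower. In limma 8.85% of all genes tested had an unadjusted p below 0.05, and 0 of these 10 did. Their median was 0.14, but it was -0.02 after the normexp background correction and -0.01 without WT replicate 1. Over the 9 of them well above background on all 6 arrays it was 0.13. Irf9, a DNA-binding subunit of the factor that type I receptors activate, had the smallest p, with a difference of 0.30 (limma adjusted p = 0.560) and no overlap. Stat2, which joins Irf9 in that factor, differed by 0.16, with groups that overlapped, and by 0.06 without L1-Tg replicate 3. Crkl, an adaptor bound by Tyk2, was lower with no overlap, by a difference of -0.19 (limma adjusted p = 0.588), and Prkcd, a protein kinase C, differed by 0.21.

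Brakes on the pathway, such as suppressors of cytokine signaling and PIAS proteins, had 8 of 12 tested genes higher and 4 lower and a median of 0.03, which ranged from -0.03 to 0.09 with 1 array left out. Usp18, which binds Ifnar2 and limits type I signaling, had the smallest p of the list. Its scaled log2 level was 3.87 ± 0.34 (SD, n = 3 pools) in L1-Tg livers and 2.40 ± 0.35 in WT livers, a difference of 1.47 with no overlap (limma adjusted p = 0.199). Pias2 differed by -0.26 (limma adjusted p = 0.616) and Pias4 by -0.19 (limma adjusted p = 0.668), and in both the groups overlapped.

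Downstream, type I interferon-stimulated genes were higher in L1-Tg mice in 27 of 27 tested genes, by 0.15 to 2.57 with a median of 1.37. There was no overlap of the groups in 25 of them, against 15.9% of all genes tested, and 25 had an unadjusted p under 0.05 in limma, against 8.85%, with a smallest adjusted p of 0.181. Because the list was written with earlier results of these data known, these counts describe it and are no independent test. Rsad2, the antiviral protein viperin, differed by 1.90, Cmpk2, a mitochondrial nucleotide kinase next to it in the genome, by 1.56 and Oasl1, a protein of the OAS family, by 1.37 (limma adjusted p = 0.181 for each). Ifi44, an interferon-induced gene chosen after its value was seen, passed without WT replicate 3, with a difference of 3.53 (limma adjusted p = 0.0234). The median lay between 1.08 and 1.62 with 1 array left out.

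Targets of interferon-gamma were higher in 17 of 23 tested genes, with a median of 0.35, which was 0.10 without WT replicate 1, 0.23 without L1-Tg replicate 3 and 0.54 without WT replicate 2. Groups did not overlap for 3 higher and 0 lower genes, where 7.27% and 8.63% of all genes tested did. In limma 5 genes, all higher, had an unadjusted p under 0.05, against 8.85% of all genes in either direction. These counts describe the list and are no independent test. Gbp6, a guanylate-binding protein, differed by 1.33 (limma adjusted p = 0.457), Psmb8, an immunoproteasome subunit, by 0.46 (limma adjusted p = 0.535) and Iigp1, an immunity-related GTPase, by 0.35 (limma adjusted p = 0.547). With the WT mean of each gene set to 0, the median of this list on single arrays was 0.37, 0.01 and 0.53 for the L1-Tg pools and -0.39, 0.46 and -0.14 for the WT pools. WT replicate 2, the WT pool in which Ifng was well above background, was the highest WT pool here and lay within the L1-Tg range. Its Ifng signal was low, and a link between Ifng and these targets was not tested. Genes that induce interferon-gamma or receive such signals had 6 of 7 tested genes higher and a median of 0.09, which was -0.02 without WT replicate 1 and 0.24 without L1-Tg replicate 3. Il15, a cytokine that sustains NK cells, was well above background in 3 L1-Tg and 1 WT pools, and thus passed the filter through its L1-Tg pools alone. Its difference of 0.86 (limma adjusted p = 0.601) is therefore no measured fold. The difference was 0.35 without WT replicate 2 and 0.21 after normexp. The receptor chain gene Il12rb1 differed by -0.21 and Ebi3, a subunit of interleukin-27, by 0.37, with groups that overlapped, and Ebi3 by 0.14 without WT replicate 1 and 0.64 without WT replicate 3.

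**Figure D5:**
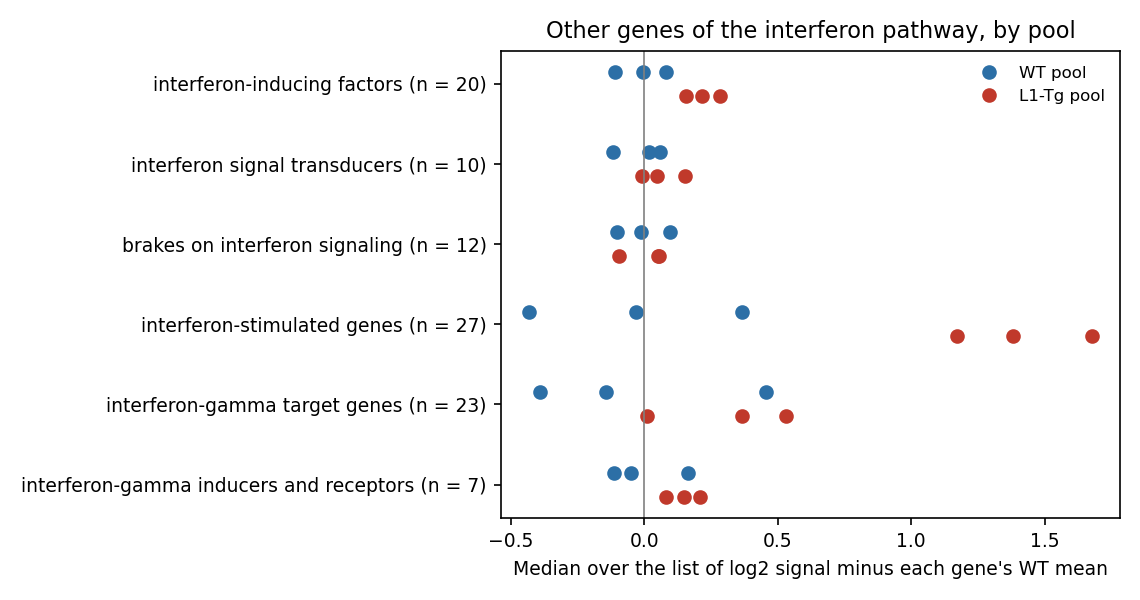
Median over the tested genes of each list (n on the vertical axis) of the log2 signal minus the gene's WT mean, in each WT and L1-Tg pool. Interferon-stimulated genes lie at 1.17 to 1.68 in L1-Tg pools and at -0.43 to 0.37 in WT pools. Interferon-inducing factors are also apart, by less, at 0.16 to 0.28 in L1-Tg pools and -0.11 to 0.08 in WT pools. Transducers, brakes, interferon-gamma targets and interferon-gamma inducers overlap between the groups.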

How the data were processed

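Liver RNA of 3 L1-Tg and 3 WT pools was hybridized to 1-color Cy3 arrays. The authors read the scans with Agilent Feature Extraction (10.10.1.1). What they deposited as processed signals are linear intensities, background-corrected per array with no scaling across arrays. The deposited matrix holds the same intensities multiplied by a factor for each array (2.46 to 2.98), whose basis is not given in the sources used here. Other deposited columns hold median and background intensities and marks with a value of 0 or 1, used as score-like flags for spots well above background, positive and significant, saturated or non-uniform.

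Control spots (3671 of 62976) were left out and non-uniform spots, 1 to 22 per array, were set to missing. Of all probe spots 53.1% to 59.2% per array were well above background and 0 were saturated. The log2 of each signal minus that of the 75th percentile of its array was used, and spots of a probe were averaged. A probe counted as well above background where a share of at least 0.5 of its spots did. Of 28685 probes with a RefSeq-type accession 27235 matched a symbol. A gene was its probe with the highest mean, and the test covered the 22339 genes whose probe passed this mark on every array of 1 or both groups. It was limma (version 3.58.1, R 4.3.3; lmFit, eBayes, two-sided, Benjamini-Hochberg over all genes, threshold 0.05), with the packages data.table (version 1.17.8) and jsonlite (2.0.0). The pipeline was tested on simulated data. Arrays limit the precision by their number, and p-values measure the spread between these pools. No replicate block was used, since the labels do not say that the numbers pair the pools.

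Named genes were the 10 members, other ligands by detection, the 3 genes with the smallest p of each pathway list, Stat2 and Irf9, the 2 brightest markers of a list and the 2 genes most like each receptor or kinase. Members and lists were chosen with earlier results of these data known. Some genes that the rule names are not reported here. Lists of plasmacytoid dendritic cells (median 0.22, Runx2 in no pool above background), endothelial and stellate cells (0.02), hepatocytes (-0.11) and red blood cells (0.29) were computed too. Promoters were searched with Python 3.11.15, pandas 2.3.3 and Biopython 1.88, and figures drawn with matplotlib 3.10.9. Alternatives covered the scaling, background correction, filter, probe choice, test, replicate block and arrays left out.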

Additional observations from a re-analysis of the deposited data

How the results depend on the processing

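None of the 8 members tested passed the adjusted threshold in limma under any alternative run, and the differences of Ifngr1, Ifngr2, Jak1 and Tyk2 kept their sign in all. That of Ifnar1 did so with its brightest probe and with the mean of its probes (-0.04), but its other probes alone gave 0.01 and -0.00. Ifnar2 turned to 0.0040 with quantile normalization, 0.0715 with the array median, 0.0174 without scaling and 0.0110 with the deposited matrix, and ranged from -0.0777 to 0.0144 with 1 array left out. After normexp background correction Ifna2 was -0.0868, Ifng -0.0733 and the log2 ratio of Ifngr2 to Ifngr1 -0.0004. With 1 array left out Ifng ranged from -0.13 to 0.82 and that ratio from -0.0833 to 0.18. The log2 ratio of Ifnar2 to Ifnar1 was -0.0427 and -0.0360 with the other Ifnar1 probes. The causes were not tested. The array median moved the median of all genes from -0.03 to 0.08.

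The limma count of 29 genes, 27 higher and 2 lower, was 10 (9 higher, 1 lower) without the filter on dim probes and 11 (11 higher, 0 lower) with the replicate block, where 1847 genes had an unadjusted p under 0.05. The block changed no call of a member. Deviations of same-numbered pools correlated at -0.16, 0.11 and 0.02, and the numbers do not show a pairing of the pools. The lower count was 1 after normexp. The test without moderated variances called 0 (0 higher, 0 lower), with 1837 genes under an unadjusted 0.05. With 1 array left out 9 to 19 genes passed, 8 to 16 higher and 0 to 3 lower, with 9, 15 and 14 without L1-Tg replicates 1 to 3 and 17, 9 and 19 without WT replicates 1 to 3. Other pathway genes called numbered 0 to 1. Members past the difference index numbered 1 without scaling and 5 to 8 with 1 array left out. Members tested numbered 8, and 7 where all 6 arrays or both spots of Ifng were required to be well above background. Dim signals limit what can be said of Ifnb1, Ifna4 and Ifng.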
